A study of Caenorhabditis elegans with 6 samples.

Results

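The long noncoding RNA tts-1 (F09E10.11) was followed on whole-genome arrays of Caenorhabditis elegans. All probe sets that the platform annotation maps to tts-1 were taken, which gave 1 probe set among 22548 non-control probe sets, and 1 gene among 17118 genes with a probe set of 1 symbol. RNA came from whole animals at the fourth larval stage (L4), which had been synchronised by bleaching and fed the E. coli strain OP50 on plates. There were 2 genotypes with 3 biological replicates each: N2, the wild-type strain, and the mutant atfs-1(et18), a strain with a point-mutation allele of atfs-1. ATFS-1, a bZIP protein, switches on mitochondrial stress genes when import into mitochondria fails, and et18 is known as a gain-of-function allele that lets it reach the nucleus. The mutation is carried in every cell of the animal from the egg on, and 1 mutant strain was measured, so that its other background differences cannot be told apart from et18.

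The name of tts-1 stands for transcribed telomere-like sequence. The RNA is abundant in dauer larvae, the long-lived arrested stage, and in adults with reduced insulin-like signalling. It has been found on ribosomes, and it is needed for the full lifespan extension of the insulin receptor mutant daf-2 and the ubiquinone synthesis mutant clk-1, where it lowers ribosome levels. The gene lies on chromosome X and is annotated as a noncoding RNA in the gene table of assembly WBcel235. No protein is made from it, so its level on the array is the readout of its expression, without information on where in the worm it was made.

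In atfs-1(et18) worms the level of tts-1 was several times that in wild-type worms, and the arrays of each genotype lay close together. The signals of tts-1, on the linear scale of the deposited values, were 199, 213 and 169 in N2 and 1208, 1089 and 1141 in atfs-1(et18). Every mutant array lay far above every wild-type array: the lowest mutant signal was 5.11 times the highest wild-type signal. The mean signal was 194 ± 22.4 (SD, n = 3) in wild-type and 1146 ± 59.8 (SD, n = 3) in atfs-1(et18), and the difference of the mean log2 signals was 2.57, which is 5.94-fold. The gene was chosen by these signals, that is, for its difference between the genotypes, so the difference is given as a description, with no test.

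The rank of tts-1 within its array moved in the same way. Among the 22548 probe sets, counted from the brightest, it stood at rank 9669, 8679 and 9600 in N2 and at rank 2708, 2965 and 2941 in the mutant. That is percentile 57.1, 61.5 and 57.4 in wild-type, a little above the middle of the array, and percentile 88.0, 86.9 and 87.0 in the mutant. A rank depends on how strongly each probe set binds, so it places tts-1 on its array but does not compare its abundance with that of other RNAs. The wild-type signals were 2.47, 3.11 and 2.61 times the 40th percentile of their arrays, the level used below to set dim probe sets apart, and the mutant signals were between 16.7 and 17.3 times that level. The level of tts-1 was therefore above this dim range in both genotypes. Detection calls were not given, so the share of background in the wild-type signals was not tested. The size of the ratio depends on it: with 64 added to each signal before the logarithm, the log2 change was 2.23 in place of 2.57.

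**Figure D1:**
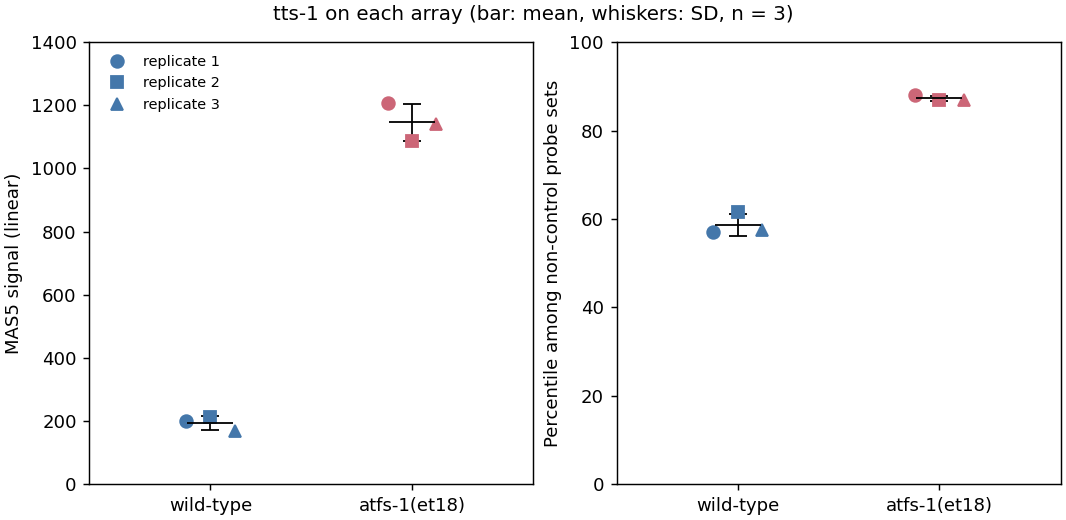
Signal of tts-1 on a linear axis (left) and its percentile among all non-control probe sets of the same array (right), for each of the 3 wild-type and 3 atfs-1(et18) arrays, with the mean as a bar and the SD as whiskers. The wild-type signals lie between 169 and 213 and the mutant signals between 1089 and 1208, and the percentile goes from 57.1 to 61.5 in wild-type to 86.9 to 88.0 in the mutant.

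Within genotypes tts-1 varied little. The SD of its log2 signal was 0.17 in wild-type and 0.08 in atfs-1(et18), and pooled over both it was 0.13, where the 1000 genes nearest to it in mean log2 signal had a median SD of 0.25. Among the 10613 genes that passed a filter on dim probe sets, 39 had a larger rise in mean log2 signal, and 18 other genes had a lowest mutant signal at least 5.11 times the highest wild-type one. Of 18 alternative ways of processing, 12 can move the log2 change of tts-1, and over these it lay between 2.23 and 2.64. The smallest value came from an offset of 64 added to each signal before the logarithm, which shrinks changes of dim probe sets by construction.

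One pair of arrays stood apart in ribosomal RNA, and tts-1 did not follow it. The ribosomal RNA gene rrn-3.1 has 5 probe sets, and its brightest read 14939, 384 and 494 in wild-type and 15265, 553 and 920 in atfs-1(et18). Replicate 1 of both genotypes was thus far brighter than the other arrays, and the other 4 probe sets of rrn-3.1 were also brightest on those arrays. On the replicate 1 arrays tts-1 read 199 in wild-type and 1208 in atfs-1(et18). With both arrays of replicate 1 left out, a setting chosen after seeing the data, its log2 change was 2.55. With all arrays it was 2.57. The gene was chosen for its difference on these same arrays, so both values are descriptions and test nothing. The labels give no reason for the brightness of rrn-3.1.

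Other noncoding RNA genes on the array did not share the change of tts-1 in size. The annotation places 31 of them on the array, of which 20 were too dim to be tested and 11 were tested; 1 was higher in atfs-1(et18) and 0 were lower (limma, adjusted p under 0.05), against 4.06% of all genes called in either direction, 2.69% higher and 1.37% lower. Their median log2 change was -0.11, where that of all genes tested was 0.005. The one called was the long noncoding RNA T09F5.12, with signals of 479, 544 and 608 in wild-type and 996, 886 and 936 in the mutant. The arrays of the genotypes did not overlap for T09F5.12, as was the case for 23.4% of all genes, and its log2 change was 0.79 ± 0.16 (SE, limma adjusted p = 0.0292). The call did not hold in 9 of 18 alternatives, where its adjusted p reached 0.163.

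The gene tts-2, named like tts-1 for telomere-like sequence, was bright in both genotypes. Its signals were 1665, 1049 and 1246 in wild-type and 1536, 1356 and 1822 in the mutant. These overlap, and its log2 change was 0.27 ± 0.20 (SE), with a limma adjusted p of 0.571. The long noncoding RNA lep-5, which acts in developmental timing, read 10074, 13591 and 14138 in wild-type and 10986, 7978 and 11315 in the mutant, with a log2 change of -0.32 ± 0.19 (adjusted p = 0.445). The noncoding RNA W06H8.5 read 2523, 2567 and 2568 in wild-type and 2406, 2310 and 2381 in the mutant, a log2 change of -0.11 ± 0.12 (adjusted p = 0.724). For rrn-3.1 the log2 change of 0.49 ± 1.54 (adjusted p = 0.913) had an error larger than itself. Replicate 1 lay far above the other replicates in both genotypes, the mutant array was the brighter one at each replicate number, and the sign of the fitted change turned when single arrays were left out.

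**Figure D2:**
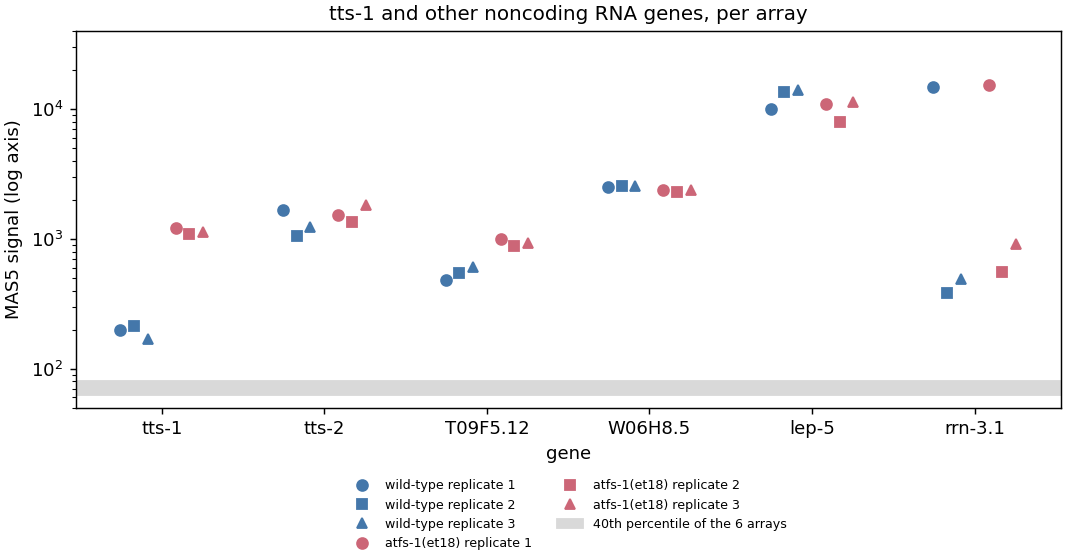
MAS5 signal, on a log axis, of tts-1 and the 5 noncoding RNA genes described in the text on each of the 6 arrays, with the grey band spanning the 40th percentiles of the arrays. The genotypes lie apart for tts-1 and, by less, for T09F5.12 and W06H8.5, while rrn-3.1 is high on replicate 1 of both genotypes.

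The genes beside tts-1 on chromosome X were examined next, in the order of the gene table. Of the 5 annotated genes on each side, 6 have a probe set, and 2 of these passed the filter on dim probe sets. Of the 2, limma called 0, against 4.06% of all genes, and 1 had an unadjusted p under 0.05, against 17.4%. With 2 genes tested, such counts say little. The nearest measured gene on one side is F09E10.1, a protein-coding gene. Its signals were 88.2, 5.29 and 4.60 in wild-type and 206, 117 and 123 in the mutant. The genotypes did not overlap for F09E10.1, as was the case for 23.4% of all genes. It passed the filter with 3 mutant arrays and 1 wild-type array, and 2 of the 3 wild-type signals were below the 40th percentile of their arrays. With a log2 change of 3.47 ± 1.06 (SE), F09E10.1 missed the threshold (limma adjusted p = 0.136). F09E10.1 was also not called in 14 of its 16 alternatives, with a limma adjusted p of up to 0.399. The 2 that called it were array weights (adjusted p = 0.00478) and leaving out wild-type replicate 1. That is its brightest wild-type array, and without it the change was 4.86 (adjusted p = 0.00304). With an offset of 64, which weighs dim signals less, the log2 change of F09E10.1 was 1.22.

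On the other side the nearest measured gene is F09E10.10, itself annotated as a noncoding RNA. Its signals were 4.33, 2.96 and 5.31 in wild-type and 17.8, 4.197 and 3.99 in the mutant, below the 40th percentile on all 6 arrays. The RNA of F09E10.10 was thus not measured above the dim range in either genotype, and the same holds for F09E10.5, F09E10.6 and the actin regulator gene toca-1. The remaining neighbour, F09E10.7, read 323, 146 and 74.5 in wild-type and 185, 96.8 and 226 in the mutant, which overlap (log2 change 0.07 ± 0.53, limma adjusted p = 0.965). Beyond these, and named after its values were seen, the short-chain dehydrogenase gene dhs-25 read 2755, 3122 and 2963 in wild-type and 1339, 1278 and 1147 in the mutant. It lay in the opposite direction to tts-1, with a log2 change of -1.23 ± 0.14 (limma adjusted p = 0.00199), and was called in each of its 18 alternatives (highest adjusted p = 0.0186). Widening the window to 5 measured genes on each side also took in K06A9.3 (0.41), K06A9.2 (-0.04) and kola-1 (-0.63). None of these was called (limma adjusted p = 0.563, 0.962 and 0.281).

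**Figure D3:**
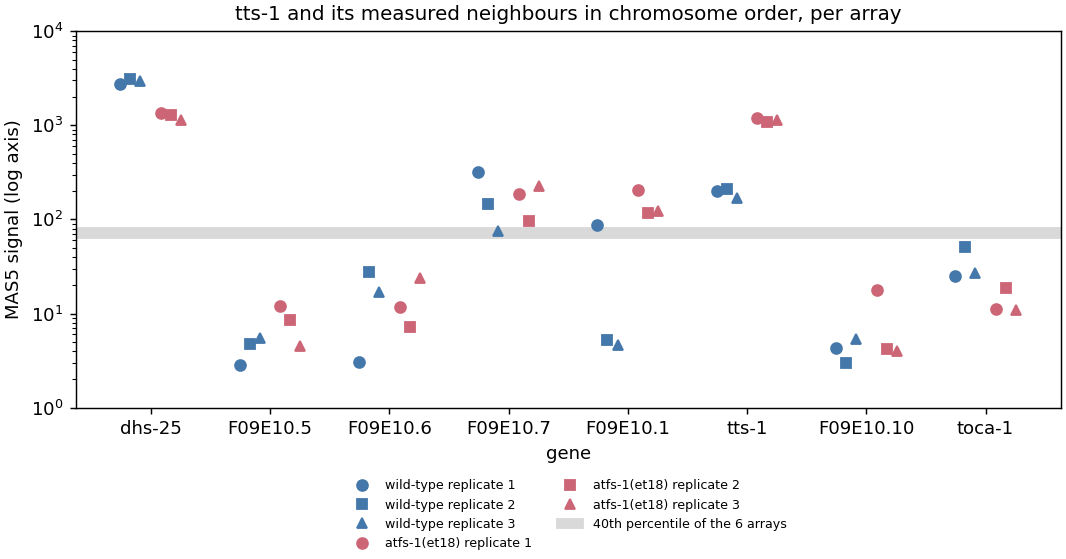
MAS5 signal, on a log axis, of tts-1 and measured genes around it in chromosome order, with circles, squares and triangles for replicates 1, 2 and 3 and the grey band spanning the 40th percentiles of the 6 arrays. F09E10.10, on one side of tts-1, stays below the band on every array, while F09E10.1, on the other, rises above it on all 3 mutant arrays and on 1 wild-type array. K06A9.3, K06A9.2 and kola-1, which lie further out, are not drawn.

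Some genes had nearly the same course over the 6 arrays as tts-1. Likeness was measured as the root mean square difference between log2 signals over the 6 arrays, after each gene was centred on its own mean, so that both the shape and the size of a change count. The nearest was the cytochrome P450 gene cyp-14A1, with a difference of 0.17, where the median over all genes was 1.32. Its signals were 60.8, 80.3 and 59.6 in wild-type and 465, 475 and 475 in the mutant, and 2 of the wild-type values were below the 40th percentile of their arrays. Next came dod-3, a gene activated by the FOXO factor DAF-16, at 0.22, with signals of 111, 110 and 104.1 in wild-type and 608, 415 and 636 in the mutant. It was followed by the cytochrome P450 gene cyp-37B1 at 0.23, with signals of 103, 107 and 93.6 in wild-type and 469, 427 and 420 in the mutant.

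The C-type lectin gene clec-4, also at 0.23, read 345, 274 and 317 in wild-type and 2304, 2245 and 1684 in the mutant. The TFIID subunit gene taf-11.2 was at 0.27, and its 3 wild-type signals (43.8, 40.9 and 25.5) were all below the 40th percentile, so its course rests on the mutant arrays. The other 5 of the 10 nearest genes were C46A5.1 (0.27), H11L12.1 (0.28), the ABC transporter gene haf-6 (0.28), the chemoreceptor gene str-7 (0.28) and mcat-1, of mitochondrial fatty acid synthesis (0.28). Log2 changes of these 10 genes lay between 2.04 and 2.99, around the 2.57 of tts-1, as the measure requires. With 2 genotypes, a gene that differs between them correlates with tts-1 almost by definition: 218 genes had a Pearson correlation of at least 0.95 with it over the 6 arrays. Of the 10 genes named, 4 were also among the 10 with the highest correlation.

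**Figure D4:**
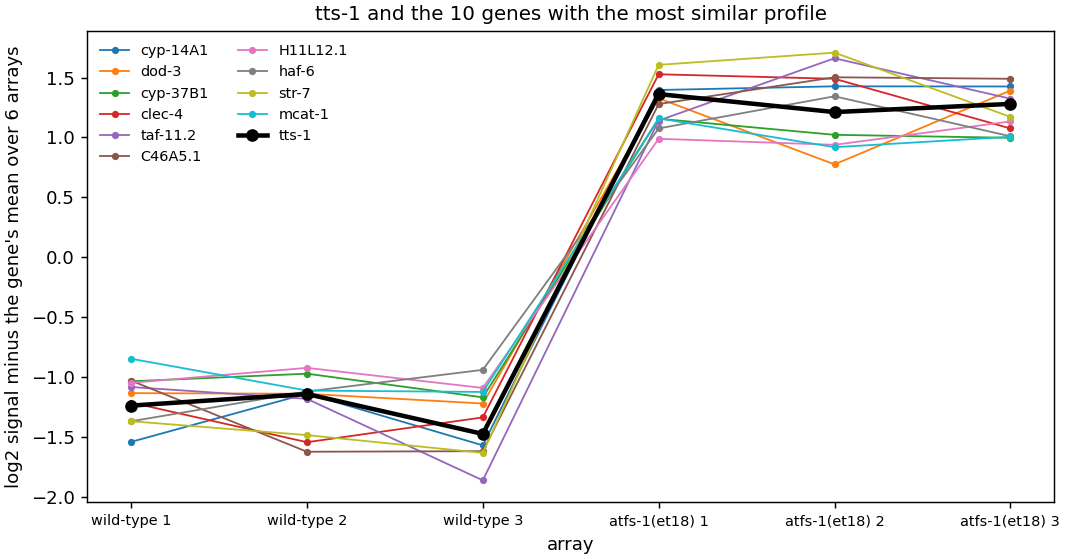
Log2 signal of tts-1 (black) and of the 10 genes nearest to it on each of the 6 arrays, each gene minus its own mean over the arrays. All 11 lines run close together, low on the 3 wild-type arrays and high on the 3 mutant arrays, because likeness chose them.

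The genes of the ribosome, on which tts-1 is known to act, were compared as lists. Of 80 cytosolic ribosomal protein genes tested, limma called 0, against 4.06% of all genes, and 8 had an unadjusted p under 0.05, against 17.4% of all genes. With array weights 2 of the 80 were called, where 770 of all 10613 genes were higher and 528 lower. A negative log2 change was found for 79 of the 80, with a median of -0.27 and a range of -0.45 to 0.03, and the genotypes did not overlap for 36 (45%, against 23.4% of all genes). This small, shared difference depended on scaling: with quantile normalization the median was 0.0016, while with equal array medians it was -0.26. It also rested in part on 1 array, with a median of -0.16 without atfs-1(et18) replicate 3. Relative to each gene's mean, the list median was 0.08, 0.22 and 0.10 on the wild-type arrays and -0.06, 0.05 and -0.37 on the mutant arrays, so that the highest mutant array lay just below the lowest wild-type array. The members with the smallest p were rpl-28 (-0.37 ± 0.13, adjusted p = 0.194) and rpl-11.2 (-0.43 ± 0.16, adjusted p = 0.208). The signal of rpl-28 was 23852, 26607 and 24250 in wild-type and 17733, 21780 and 18297 in the mutant.

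Genes of translation and of ribosome assembly were called at a share near that of all genes (4.06%). Of 40 translation factor genes, 1 was higher and 0 were lower (2.5%). The log2 change was negative for 33 of the 40, with a median of -0.21 (between -0.25 and -0.12 over its alternatives). The genotypes did not overlap for 13 (32.5%, against 23.4% of all genes). The called gene was ife-5, encoding a form of the cap-binding factor eIF4E. Its signals were 190, 171 and 121 in wild-type and 370, 323 and 380 in the mutant (log2 change 1.18 ± 0.23 SE, limma adjusted p = 0.0243). In 7 of 18 alternatives ife-5 was not called, with an adjusted p of up to 0.135. Of 45 genes listed for ribosome biogenesis, 1 was higher and 0 were lower (2.22%), with a median of -0.10. That gene, imp-3, belongs in C. elegans to the presenilin-like intramembrane proteases and stood in the list through the name of a ribosome assembly factor of yeast. Its change of 1.00 ± 0.17 (adjusted p = 0.0156) came from a probe set marked as cross-binding (able to bind other transcripts as well), and its other probe set gave 0.09. Apart from imp-3, limma called no gene of this list. The entry nop-1 (log2 change 0.32, not called) also stood in it through a yeast name, and the share and median above include both.

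The insulin and DAF-16 pathway acts upstream of tts-1 in long-lived daf-2 mutants. In it limma called 0 of 22 genes, where 4.06% of all genes were called, so the count does not set the list apart. An unadjusted p under 0.05 was found for 4 of the 22, against 17.4% of all genes. With array weights 2 of the 22 were called, where 770 of all 10613 genes were higher and 528 lower. The median was -0.03, and the genotypes did not overlap for 9 of the 22 (40.9%, against 23.4% of all genes). The insulin receptor gene daf-2 was dim, with signals of 49.2, 71.6 and 65.3 in wild-type and 77.9, 91.0 and 65.9 in the mutant, and its log2 change was 0.34 ± 0.36 (adjusted p = 0.699). The FOXO gene daf-16 read 1199, 1327 and 1384 in wild-type and 1217, 1337 and 1155 in the mutant (-0.08 ± 0.14, adjusted p = 0.847). Of the pathway's genes, pqm-1, a zinc finger factor of the DAF-16 response, had the smallest p, with signals of 470, 847 and 1055 in wild-type and 1575, 1988 and 1237 in the mutant (1.07 ± 0.30, adjusted p = 0.107). The kinase gene pdk-1 followed with -0.58 ± 0.22 (adjusted p = 0.221). The values of daf-2, daf-16 and pdk-1 come from probe sets marked as cross-binding. Without such probe sets daf-16 gave -0.37 (limma adjusted p = 0.430), and daf-2 and pdk-1 had no value.

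Genes that DAF-16 activates were examined because tts-1 is abundant in daf-2 mutants. Of 18 tested, 3 were higher and 0 were lower, against 2.69% and 1.37% of all genes, with a median of 0.26 beside 0.005 for all genes. The genotypes did not overlap, in either direction, for 10 of the 18 (55.6%), against 23.4% of all genes. Log2 changes were positive for 11 members and negative for 7. The lowest were -1.74 for lys-7 and -1.70 for hsp-12.3, neither of them called. Besides dod-3 (5.03-fold, limma adjusted p = 0.000844), the called genes were sip-1, of the small heat shock proteins (3.44-fold, adjusted p = 0.00343) and the ferritin gene ftn-1 (2.28-fold, adjusted p = 0.00751). The values of dod-3, sip-1 and ftn-1 come from probe sets marked as cross-binding. Without such probe sets 1 member was called, sip-1, whose other probe set gave a log2 change of 1.66 (limma adjusted p = 0.00325). The ftn-1 call was lost without atfs-1(et18) replicate 1 (adjusted p = 0.0509). The list had 5 called members when wild-type replicate 1 was left out. Calls over all genes also rose there, to 456 higher and 238 lower, from 286 and 145 with all arrays. The list of genes that DAF-16 represses had 7 tested members, of which 1 was higher and 0 were lower (14.3%, against 4.06% of all genes, median 0.20). It was dod-22, a CUB-like gene of the innate immune response, with signals of 156, 225 and 396 in wild-type and 958, 1088 and 668 in the mutant (1.88 ± 0.34, adjusted p = 0.0180, and up to 0.103 over its alternatives).

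Mitochondrial mutants are the other long-lived animals in which tts-1 has been studied. Of 19 mitochondrial genes whose loss extends or changes lifespan, or that act beside clk-1, 2 were higher and 0 were lower (10.5%, against 4.06% of all genes), with a median of 0.02. Both belong to ubiquinone synthesis, the pathway of clk-1: coq-8 (2.34-fold, limma adjusted p = 0.00361) and coq-1 (2.13-fold, adjusted p = 0.00751). For coq-1 the call was lost without atfs-1(et18) replicate 1 (adjusted p = 0.0572) and without both arrays of replicate 1 (0.0588). The clk-1 gene itself read 710, 565 and 543 in wild-type and 906, 801 and 765 in the mutant. The genotypes did not overlap for clk-1, as for 7 of the 19 listed genes (36.8%) and 23.4% of all genes. A log2 change of 0.45 ± 0.17 left it short of the threshold (adjusted p = 0.221, and 0.0315 with array weights). The respiratory chain gene isp-1 read 17700, 20661 and 21342 in wild-type and 19164, 19947 and 16001 in the mutant (-0.12 ± 0.14, adjusted p = 0.748), and its sign turned with quantile normalization. These isp-1 values come from a cross-binding probe set.

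Among 16 genes of dauer formation and larval arrest, 0 were higher and 1 was lower (6.25%, against 4.06% of all genes), with a median of -0.13. This was daf-5, encoding a Ski-related regulator of the dauer TGF-beta pathway, with signals of 733, 957 and 771 in wild-type and 181, 311 and 454 in the mutant. Its log2 change was -1.47 ± 0.31 (SE, limma adjusted p = 0.0366), from a cross-binding probe set, and it lost its call in 7 of 18 alternatives, with an adjusted p of up to 0.193. The atfs-1 transcript read 207, 284 and 277 in wild-type and 346, 355 and 289 in the mutant (0.38 ± 0.20, adjusted p = 0.400), also from a cross-binding probe set.

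**Figure D5:**
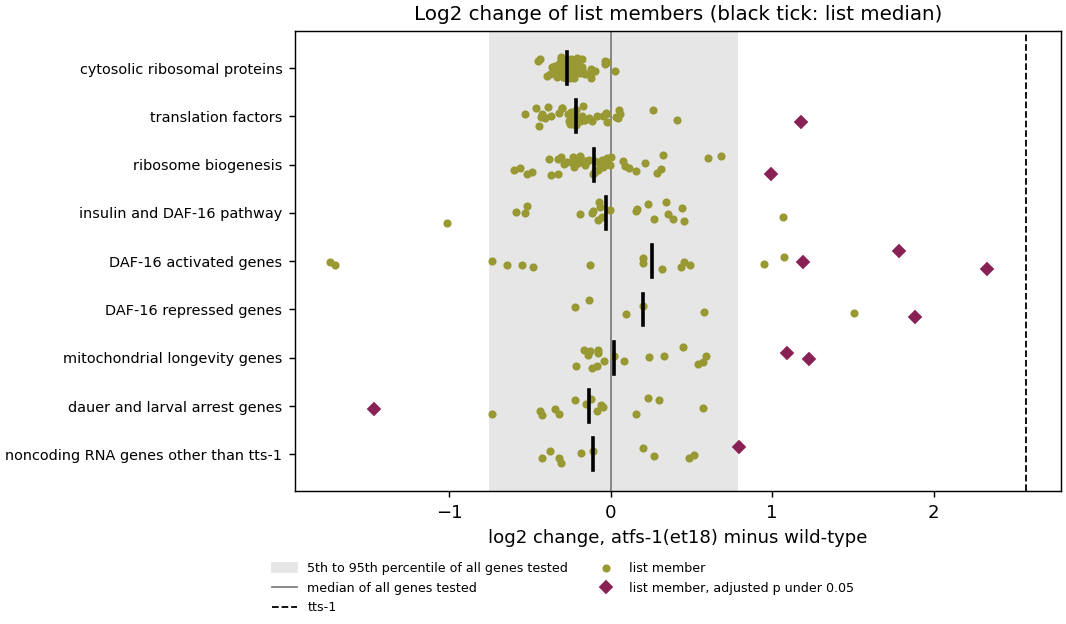
Log2 change, atfs-1(et18) minus wild-type, of each tested member of 9 lists, with a black tick at the list median, diamonds for members with adjusted p under 0.05, grey shading for the 5th to 95th percentile of all genes tested and a dashed line at tts-1. No list member lies as far to the right as tts-1 (2.57), and the ribosomal protein genes sit in a narrow cloud around -0.27, a median that is 0.0016 with quantile normalization.

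Because whole animals were used, fewer cells of a type and less RNA per cell cannot be told apart. Markers of dauer larvae, in which tts-1 is abundant, were looked at for this reason. Of 8 such markers 7 were measured, col-40, cut-1 and hsp-12.6 were below the 40th percentile on all 6 arrays, and the summed signal ran from 9883 to 14117 in wild-type and from 13445 to 15750 in the mutant, which overlap. The summed signals of intestine (10 of 10 measured), hypodermis (7 of 8), pharynx (5 of 5), neuron (10 of 10), germline and oocyte (12 of 12) and molting markers (10 of 10) overlapped between genotypes as well. Those of body wall muscle (8 of 8 measured, 54845 to 61560 in wild-type and 43799 to 51316 in the mutant), sperm (10 of 12, 79756 to 103000 and 63379 to 76579) and yolk proteins (5 of 6, 6925 to 11409 and 1091 to 1686) were lower in every mutant array. Of these lists, 5 of 5 yolk protein genes and 0 of 8 body wall muscle and 0 of 10 sperm genes were called lower (limma, adjusted p under 0.05), against 1.37% of all genes. The part of these differences in the level of tts-1 was not tested.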

How the data were processed

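Total RNA of 6 whole-worm samples was labelled and hybridised to Affymetrix C. elegans arrays. Each deposited intensity is a linear MAS5 signal (the tool is named in the submitters' processing notes). Its version, scaling target and detection calls were not given in the sources used here. Means after trimming 2% at each end were equal between arrays (500.2), and medians lay between 111 and 137. From these, log2 values were computed with no offset or further scaling. Apart from 77 control probe sets, which were dropped, the 13792 probe sets above the 40th percentile of their array on at least 3 arrays were tested with limma 3.58.1 in R 4.3.3 (intensity trend, two-sided, Benjamini-Hochberg over probe sets, adjusted p under 0.05). Names came from the platform annotation, updated by gene identifier with the WBcel235 gene table (20701 probe sets matched). The probe set with the highest mean stood for each of 10613 genes.

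The gene tts-1, the lists and the tests were chosen with earlier results of these data known. The ribosomal protein list was rewritten to current symbols after the gene table was seen. Named genes were tts-1, its measured neighbours, the 10 genes nearest in profile, called noncoding RNAs and the 4 brightest others, up to 4 called members per list or the 2 with the smallest p, clk-1, daf-2, daf-16, isp-1 and atfs-1. The number of arrays limits precision. The analysis script was tested on simulated data. Plots used matplotlib 3.10.9 (Python 3.11.15). No sequence of tts-1 was used here.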

Additional observations from a re-analysis of the deposited data

How the results depend on the processing

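Over the 12 alternatives that can move it, the log2 change of tts-1 lay between 2.23 (offset of 64) and 2.64, and between 2.47 and 2.64 with single arrays left out; the other 6 leave a difference of means equal for a gene with 1 probe set. Counts of called genes depended more on the processing. With single arrays left out, between 94 and 456 genes were higher and between 41 and 238 lower, against 286 and 145 as reported. Array weights gave 770 higher and 528 lower, no intensity trend gave 187 higher, leaving out probe sets that can bind other transcripts gave 94 lower, and leaving out both arrays of replicate 1 gave 142 and 77. The bright rrn-3.1 probe sets are shared by replicate 1 of both genotypes, but over all genes the deviations of same-numbered replicates from genotype means correlated at 0.15, 0.18 and -0.42, so the numbers were not taken as pairs. A replicate block gave 180 higher and 87 lower, with 0 called translation factors, ribosome biogenesis genes and noncoding RNAs.

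Called list members, with single arrays left out, ranged from 0 to 1 for translation factors, dauer genes, noncoding RNAs and neighbours, 0 to 2 for ribosome biogenesis and DAF-16 repressed genes, 2 to 5 for DAF-16 activated genes and 1 to 4 for mitochondrial genes. Array weights called 2 ribosomal protein, 5 translation factor, 7 biogenesis, 2 insulin pathway, 6 DAF-16 activated, 2 DAF-16 repressed and 6 mitochondrial genes and 1 neighbour. Quantile normalization gave a ribosomal protein median of 0.0016, 2 DAF-16 repressed and 0 noncoding calls. Equal medians gave 0 noncoding calls, and offsets of 16 and 64 and the 60th percentile filter each gave 2 DAF-16 repressed calls. Without the intensity trend 0 dauer genes and 0 noncoding RNAs were called. Averaging probe sets gave 0 biogenesis calls, and leaving out probe sets that can bind other transcripts gave 0 biogenesis, 1 DAF-16 activated and 0 dauer calls. Without both arrays of replicate 1, chosen after seeing the data, 1 mitochondrial gene was called and 0 translation, biogenesis, DAF-16 repressed, dauer and noncoding genes. Counting 5 measured neighbours on each side, also added later, gave 1 call, against 4.06% of all genes. It was dhs-25, lower in the mutant, and several of these neighbours were too dim to be tested, so the count says little. Ranking likeness by correlation shared 4 of the 10 genes.

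The sign turned for isp-1 with quantile normalization (0.11), for rrn-3.1 with single arrays left out (from -0.99 to 2.19) and for F09E10.7 likewise (from -0.44 to 0.61). The cause was not tested. Of 878 alternative values, 726 kept their direction and call or moved by less than the replicate spread. Dim neighbours are limited by signal over background, and no neighbour could be tested with the 60th percentile filter.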
